A study of Mus musculus with 2 samples.

Results

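The genes described are 4 chemokine ligands of lymphocytes, Ccl3, Ccl4, Ccl5 and Xcl1, and Xcr1, the receptor of Xcl1. They were picked by symbol, with earlier results of these data known, and are 5 of the 28692 genes in the deposited matrices. Single-cell RNA sequencing (10x Genomics) was done on leukocytes (CD45+) resident in adipose tissue of C57BL/6 mice (wild type), and intravenous labelling was used to tell them from blood leukocytes. One group of mice ate chow and is labelled as the control, and the other ate a ketogenic diet, for 1 week. The series title names γδ T cells of visceral fat as the study's subject. Each diet has 1 library, so no difference between diets has a replicate check and no p-value was computed. The labels call both groups adult, and the number, exact age and sex of the mice behind each library are not given in the sources used here.

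Chemokines are small secreted proteins that steer leukocytes along gradients through G protein-coupled receptors. Ccl3, Ccl4 and Ccl5 are CC chemokines of activated lymphocytes and of many myeloid cells. Among their receptors are Ccr1, which binds Ccl3 and Ccl5, and Ccr3, which binds Ccl5. Xcl1 is made by natural killer (NK) cells and CD8 T cells, and its receptor Xcr1 is a hallmark of type 1 conventional dendritic cells (cDC1), which present antigen to CD8 T cells.

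On GRCm38 (mm10), the 3 CC ligands lie in one cluster on chromosome 11. Ccl3 (ENSMUSG00000000982) spans 83647844 to 83649355 on the minus strand, and Ccl4 (ENSMUSG00000018930) spans 83662584 to 83664683 on the plus strand, 13228 bases away. Ccl5 (ENSMUSG00000035042) spans 83525778 to 83530518 on the minus strand, 117325 bases from Ccl3. Xcl1 (ENSMUSG00000026573) lies on chromosome 1 from 164931644 to 164935527, and Xcr1 (ENSMUSG00000060509) on chromosome 9 from 123852315 to 123862029, both on the minus strand. All 5 genes are annotated as protein coding.

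RefSeq promoters (GRCm38.p6) matched 3 of the 5 genes. They are shown because the NK-like cells below carried both Ccl3 and Xcl1 while cDC1-like cells carried Xcr1. Each line gives the 250 bases before the RefSeq start, 5′ to 3′ on the gene's strand, with motif matches in capitals. Ccl3 is chr11:83649379-83649628, Xcl1 is chr1:164935523-164935772 and Xcr1 is chr9:123862030-123862279.
Ccl3: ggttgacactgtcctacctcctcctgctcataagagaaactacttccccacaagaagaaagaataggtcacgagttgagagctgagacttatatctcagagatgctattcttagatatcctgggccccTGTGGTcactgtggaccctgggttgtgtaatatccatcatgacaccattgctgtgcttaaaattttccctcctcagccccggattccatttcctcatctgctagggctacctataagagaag
Xcl1: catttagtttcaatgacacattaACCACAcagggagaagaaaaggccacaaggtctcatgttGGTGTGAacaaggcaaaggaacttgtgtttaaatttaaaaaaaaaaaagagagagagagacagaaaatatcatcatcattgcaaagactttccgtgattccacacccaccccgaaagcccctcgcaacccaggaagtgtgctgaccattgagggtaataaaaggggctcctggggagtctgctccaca
Xcr1: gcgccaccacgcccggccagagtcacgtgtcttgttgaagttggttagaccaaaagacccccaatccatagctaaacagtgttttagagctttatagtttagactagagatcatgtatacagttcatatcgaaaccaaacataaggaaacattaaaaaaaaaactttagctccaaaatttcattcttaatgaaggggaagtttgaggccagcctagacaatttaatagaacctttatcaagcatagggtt
The Runx motif TGTGGT was matched in Ccl3 at 122 to 117 bases before the start and, on the other strand, in Xcl1 at 227 to 222. The T-box motif TCACACC was matched in Xcl1 on the other strand at 188 to 182 bases before the start. Neither the AP-1 motif TGANTCA nor a kappa B motif was matched in any of the 3, on either strand. Of 32841 RefSeq promoters of the same length, 14.0% hold the Runx motif, 3.33% the T-box motif, 6.75% the AP-1 motif and 4.65% the kappa B motif. None of the matches overlap. A match is a string of letters and does not show binding.

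The chow library held 4458 cells and the ketogenic library 5559 cells in the authors' 13 clusters, with medians of 3550 and 3467 UMIs (unique molecular identifiers, each a captured transcript). Levels are in CPM, the UMIs of a gene summed over a cluster, divided by all UMIs of that cluster and scaled to 1000000, with an exact Poisson 95% interval that covers counting error only. Clusters were named here from marker lists, as "X-like". Clusters 4 and 8 kept no name. Cluster 4 carried T cell markers together with Ly49 (Klra) genes, and Ccl5 and Xcl1 were among its leading genes. The libraries shared 41 cell barcodes, and leaving these cells out changed none of the 44 ratios tested by more than its interval. The macrophage marker sum in lymphocyte clusters was lower in the ketogenic library, for example 1048 against 169 CPM in NK-like cells, and its part in the results was not tested.

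Taken over all clustered cells, Ccl5 was at 1735 CPM in the chow and 3329 CPM in the ketogenic library, a ratio of 1.92. Xcl1 was at 155.6 and 300.7 CPM, a ratio of 1.93, and Xcr1 at 19.5 and 27.0 CPM, a ratio of 1.38. Ccl4 was at 443.8 and 438.1 CPM and Ccl3 at 51.0 and 43.3 CPM. The cell makeup differed between the libraries beside these values. The NK-like cluster, the T-like cluster and cluster 4 together were 27.6% of chow and 43.1% of ketogenic cells, and macrophage-like cells were 19.3% and 2.61%. When the ketogenic level of each cluster was weighted by the chow library's cluster sizes (in UMIs), the log2 ratio was 0.24 in place of 0.94 for Ccl5 and 0.25 in place of 0.95 for Xcl1. For Ccl3 the same weighting gave 0.05 in place of -0.24, and for Ccl4 it gave -0.12 in place of -0.02. For Ccl5 and Xcl1, chow levels weighted by the ketogenic cluster sizes gave log2 ratios of 0.79 and 0.75.

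**Figure D1:**
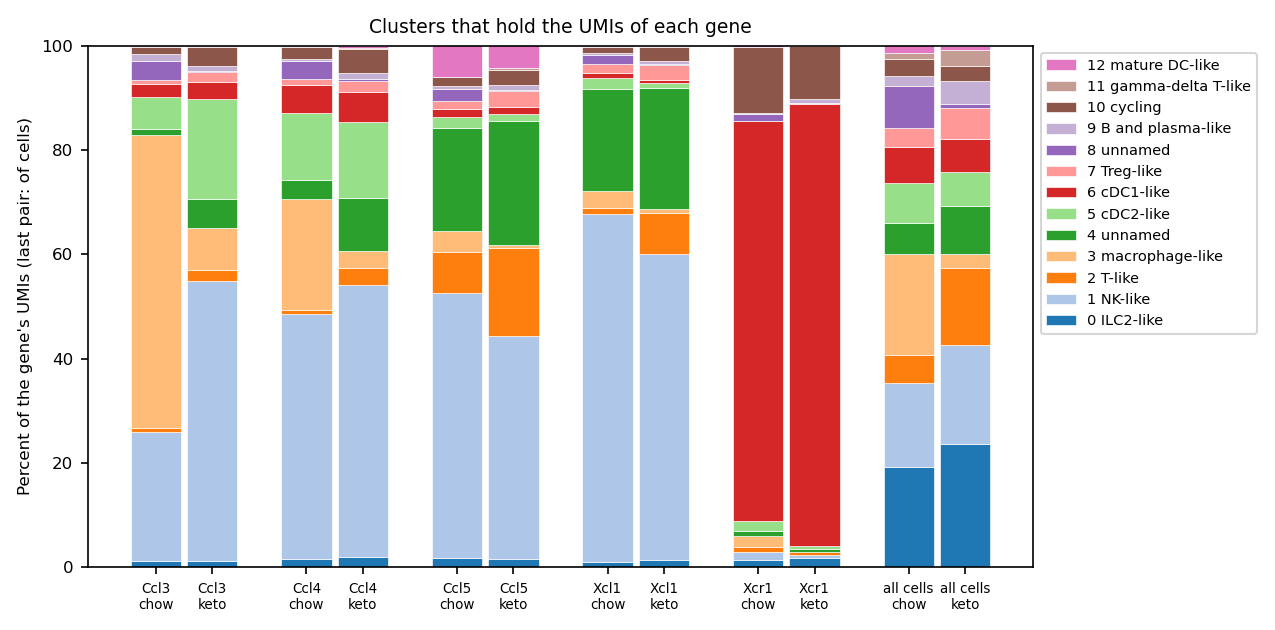
Stacked bars give the percent of each gene's UMIs held by each of 13 clusters in the chow and ketogenic (keto) libraries, and the last pair gives the percent of cells. NK-like cells and cluster 4 hold most Xcl1, cDC1-like cells hold most Xcr1, and the macrophage-like share of Ccl3 is 56.2% with chow and 8.03% with the ketogenic diet.

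Xcl1, the attractant of cDC1, was concentrated in NK-like cells and cluster 4, which held 86.5% of its UMIs with chow and 82.0% with the ketogenic diet with 22.3% and 28.4% of the cells. Its level in NK-like cells was 1232 CPM (1182 to 1285) with chow and 1270 CPM (1233 to 1307) with the ketogenic diet. In cluster 4 it was 869 CPM (804 to 939) and 933 CPM (891 to 978). In both clusters the intervals of the libraries overlapped, and the ratio was 1.03 (0.98 to 1.08) in NK-like cells and 1.07 (0.98 to 1.18) in cluster 4. After thinning each cell to 1000 UMIs, 57.6% (53.9 to 61.2, exact binomial) of chow and 58.8% (55.7 to 61.7) of ketogenic NK-like cells had an Xcl1 UMI. The same share in ILC2-like cells (group 2 innate lymphoid cells) was 1.41% and 2.29%, with medians of 2610.5 and 3133 UMIs per cell there and 2296.5 and 3147 in NK-like cells. Before thinning, 77.9% and 85.5% of NK-like cells had one.

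T-like cells carried less Xcl1 than NK-like cells and showed a wider gap between diets. The level was 57.9 CPM (40.6 to 80.2, from 36 UMIs) with chow and 221.7 CPM (204.6 to 239.9, from 618 UMIs) with the ketogenic diet. The log2 ratio was 1.92 and the ratio 3.83 (2.73 to 5.52). One ketogenic cell held 139 of the 618 UMIs, and the log2 ratio without the top cell of each library was 1.71. Over all the alternatives tried it lay between 1.71 and 2.20. The thinned share of cells with an Xcl1 UMI was 4.66% (2.35 to 8.19) with chow and 10.2% (8.24 to 12.5) with the ketogenic diet. The NK marker sum in this cluster was 135.1 CPM with chow and 128.8 CPM with the ketogenic diet, and the CD8 T marker sum 4546 and 6117 CPM. Apart from Cd8a and Cd8b1, all genes of the CD8 T list are also in the CD4 T list. A sum of that list is therefore not particular to CD8 T cells. Cells with Cd8 only were 19.5% and 25.1% of the cluster, and the part of this in the gap was not tested. The gap was present in cells with Cd8a or Cd8b1 but no Cd4 UMI (56.7 CPM from 8 UMIs against 171.4 CPM, ratio 3.02, 1.49 to 7.15), while the thinned shares overlapped, at 6.52% (1.37 to 17.9) and 13.1% (8.82 to 18.5). In cells with Cd4 only the levels were 36.6 CPM from 5 UMIs and 176.9 CPM (ratio 4.83, 2.02 to 15.1), and 3 ketogenic cells held 52.2% of the UMIs. The thinned shares of these cells with an Xcl1 UMI overlapped, at 3.57% (0.44 to 12.3) and 7.08% (4.01 to 11.4). In cells with neither the levels were 70.3 and 284.7 CPM (ratio 4.05, 2.66 to 6.47), and the ratio was 2.96 (1.85 to 5.02) without the top cell of each library, where 1 ketogenic cell held 39.4% of the UMIs. The ketogenic Cd8-only and Cd4-only cells had like Xcl1 levels (ratio 0.97, 0.75 to 1.24) but different shares of cells with a UMI, 28.6% and 15.1%, or 13.1% and 7.08% after thinning. No Cd8-only cell had 10 or more UMIs.

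Xcl1 in Treg-like cells (named from markers of regulatory T cells) was 122.5 CPM with chow and 156.2 CPM with the ketogenic diet. The ratio was 1.28 (0.96 to 1.72). Cells with a Foxp3 UMI were 30.0% of that cluster with chow and 30.5% with the ketogenic diet. Cells without one held 55 of its 61 chow and 206 of its 221 ketogenic Xcl1 UMIs. The level in cells without a Foxp3 UMI was higher than in cells with one, 142.7 against 53.2 CPM with chow and 204.1 against 37.0 CPM with the ketogenic diet. The 53.2 CPM came from 6 UMIs, 5 of them in 1 cell, and the level was 9.11 CPM without that cell. Foxp3 encodes the factor that defines regulatory T cells, and a cell without its UMI may still express it. In the 8 clusters with the lowest levels, Xcl1 lay between 10.3 and 31.3 CPM with chow and between 14.9 and 54.9 CPM with the ketogenic diet. These levels were 6.60% to 20.1% and 4.97% to 18.2% of the library-wide level, and were not told apart from background. They include the γδ T-like cluster, with 3 Xcl1 UMIs with chow and 20 with the ketogenic diet.

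**Figure D2:**
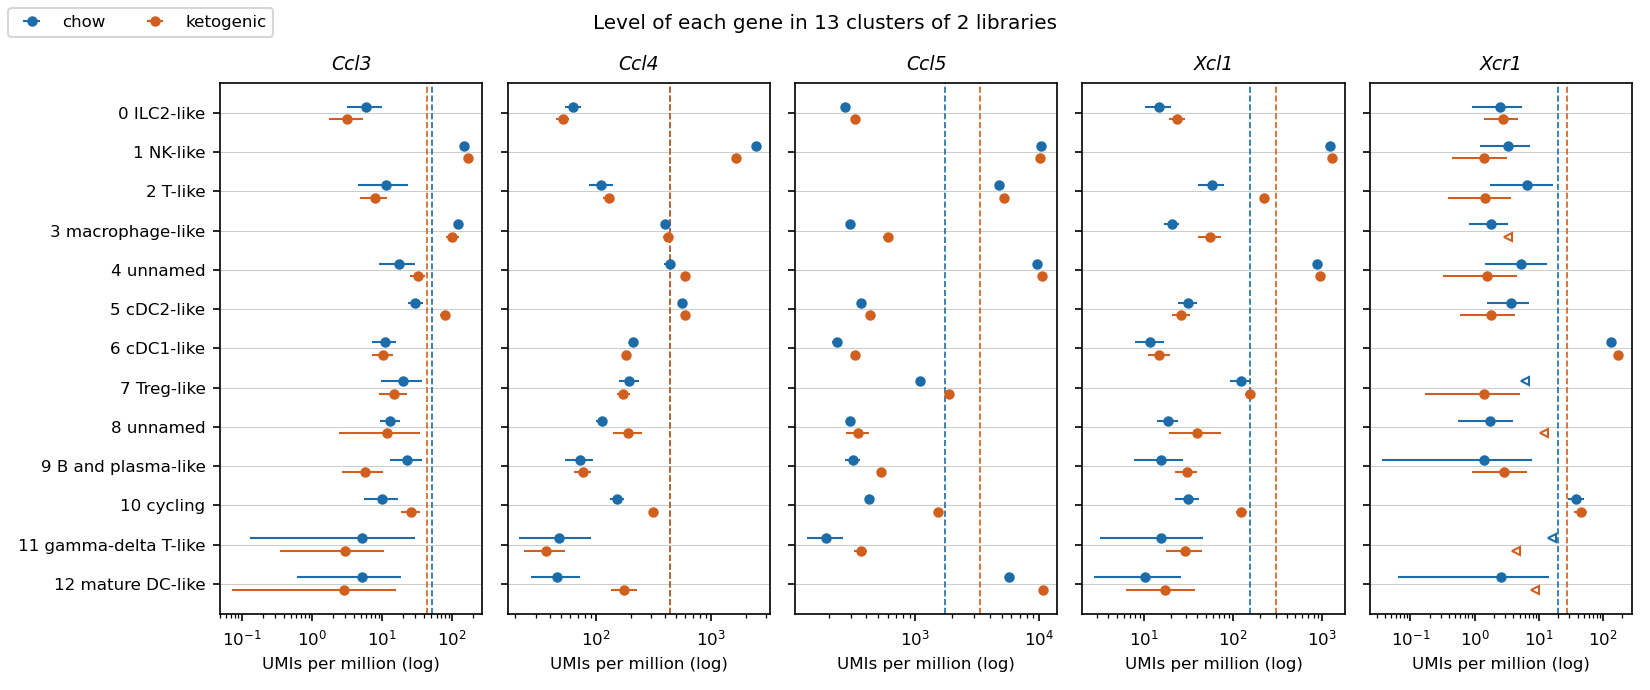
Each point is the level of a gene in 1 cluster and library, in CPM on a log axis, with its exact Poisson 95% interval; open triangles mark the limit of 3 UMIs where none was seen, and dashed lines the library-wide level. Chow and ketogenic points overlap for Xcl1 in NK-like cells and lie apart in T-like and cycling cells.

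Ccl5, which attracts T cells and monocytes, was high in 4 clusters. It was at 10461 CPM (10312 to 10612) with chow and 10212 CPM (10107 to 10317) with the ketogenic diet in NK-like cells. In cluster 4 the levels were 9680 CPM (9459 to 9905) and 10532 CPM (10388 to 10678). T-like cells held 4725 CPM (4556 to 4899) and 5229 CPM (5145 to 5315). These 3 clusters differed between diets by ratios of 0.98, 1.09 and 1.11, and held 78.4% of chow and 83.3% of ketogenic Ccl5 UMIs.

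The fourth was the mature DC-like cluster (dendritic cells with Ccr7 and Fscn1), at 5738 CPM (5503 to 5981) in 60 chow cells and 10889 CPM (10544 to 11242) in 49 ketogenic cells. The ratio was 1.90 (1.8 to 2.0). One ketogenic cell held 608 UMIs, 16.1% of the total, and the log2 ratio was 0.92 with and 0.85 without the top cell of each library. Without cells that carried at least 3 NK or CD8 T cell markers it was 1.05, at 5896 and 12215 CPM. The thinned share of cells with a Ccl5 UMI was 73.3% (60.3 to 83.9) and 89.8% (77.8 to 96.6), and these intervals overlapped.

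Within T-like cells, Ccl5 followed the Cd8 label. Cells with Cd8 only held 9782 CPM with chow and 11771 CPM with the ketogenic diet, and cells with Cd4 only held 1948 and 2134 CPM, so that the ratio of Cd8 to Cd4 cells was 5.02 (4.40 to 5.75) and 5.52 (5.23 to 5.82). Within NK-like cells, those without any Klra UMI had less Ccl5 than those with one, 7211 against 11684 CPM with chow and 6895 against 11074 CPM with the ketogenic diet. That ratio was 0.62 in both libraries. Xcl1 ran the other way, at 1310 against 1203 CPM with chow (ratio 1.09, 0.99 to 1.19) and 1571 against 1191 CPM with the ketogenic diet (ratio 1.32, 1.23 to 1.41). The Klra genes encode the Ly49 receptors for MHC class I.

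Treg-like cells held 1094 CPM (1004 to 1190) of Ccl5 with chow and 1873 CPM (1802 to 1945) with the ketogenic diet, a ratio of 1.71 (1.56 to 1.88). The CD8 T marker sum, with most of its genes also in the CD4 T list, was at 2557 and 3667 CPM in the same cells. The part of this sum in the Ccl5 ratio was not tested. Cells without a Foxp3 UMI were at 1246 and 2309 CPM and cells with one at 576.0 and 787.1 CPM. The ratio between diets was 1.85 (1.68 to 2.05) without and 1.37 (1.04 to 1.81) with a Foxp3 UMI, or 1.94 and 2.02 without the top cell of each library. In 7 other clusters Ccl5 lay between 189.6 and 364.1 CPM with chow and between 322.7 and 596.8 CPM with the ketogenic diet, which was 10.9% to 21.0% and 9.70% to 17.9% of the library-wide level. In macrophage-like and in B and plasma-like cells, 7 and 18 ketogenic cells with at least 10 UMIs held 60.4% and 64.4% of the Ccl5 UMIs, and 16 and 3 such chow cells held 28.4% and 41.8%. The γδ T-like cluster, not told apart from background, was at 189.6 CPM (132.8 to 262.5) and 360.6 CPM (316.9 to 408.6).

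**Figure D3:**
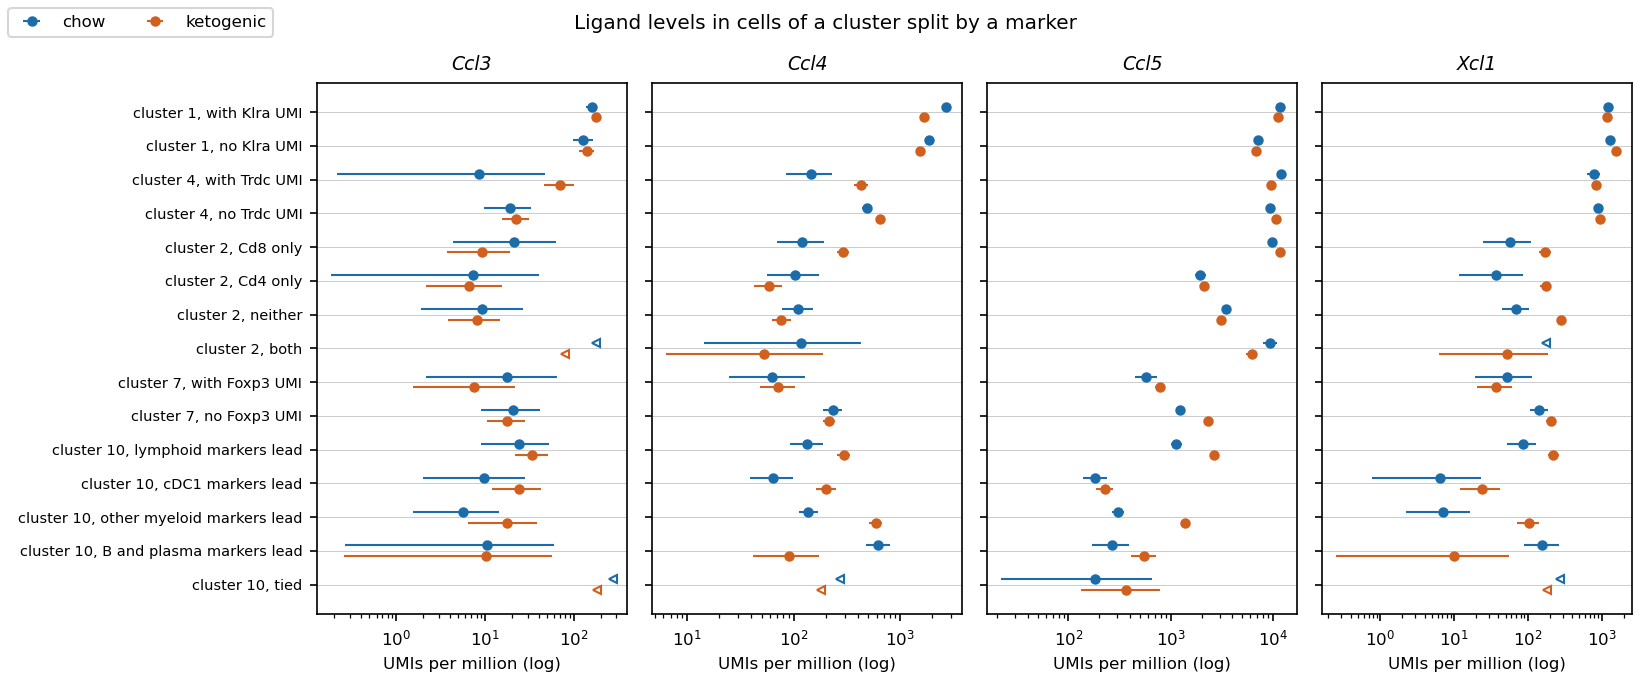
Levels of the ligands (CPM, log axis, exact Poisson 95% intervals) in cells of clusters 1 (NK-like), 4, 2 (T-like), 7 (Treg-like) and 10 (cycling), split by the presence of a UMI of a marker or by the lineage whose markers lead; open triangles mark the limit of 3 UMIs where none was seen. Ccl5 lies about 5-fold higher in Cd8-only than in Cd4-only T-like cells in both libraries; the like ketogenic Xcl1 levels of these groups rest on 3 Cd4-only cells with 52.2% of the UMIs.

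Ccl4 was the member with the clearest lower level with the ketogenic diet in NK-like cells. It was at 2475 CPM (2403 to 2549) with chow and 1646 CPM (1604 to 1688) with the ketogenic diet, so the intervals did not overlap. The log2 ratio was -0.59 and the ratio 0.66 (0.64 to 0.69), and over all alternatives the log2 ratio lay between -0.64 and -0.57. The thinned share of cells with a Ccl4 UMI was 55.8% (52.1 to 59.5) and 47.6% (44.6 to 50.7). In cells with a Klra UMI the level was 2704 against 1672 CPM (ratio 0.62, 0.59 to 0.65), and in cells without one 1866 against 1546 CPM (ratio 0.83, 0.76 to 0.90).

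In cluster 4, Ccl4 was higher with the ketogenic diet, at 436.7 CPM (390.8 to 486.5) with chow and 593.3 CPM (559.5 to 628.6). One ketogenic cell held 123 of 1151 UMIs, and the log2 ratio of 0.44 was 0.18 without the 5% of cells with the most UMIs. Cells of this cluster with a Trdc UMI, which encodes the constant region of the δ T cell receptor chain, held 17 Ccl4 UMIs with chow (144.1 CPM, 83.9 to 230.7) and 178 with the ketogenic diet (425.6 CPM, 365.4 to 492.9). Cells without one were at 491.0 and 639.4 CPM. The ratio between diets was 2.95 (1.79 to 5.18) with and 1.30 (1.15 to 1.48) without a Trdc UMI, from 44 chow and 108 ketogenic cells with one. Of the latter, 4 cells held 53.4% of the Ccl4 UMIs, and the thinned shares of cells with a Ccl4 UMI overlapped, at 11.4% (3.79 to 24.6) and 18.5% (11.7 to 27.1). In T-like cells Ccl4 was at 111.0 and 129.1 CPM (ratio 1.16, 0.90 to 1.53), with the Cd8-only cells at 120.6 and 291.1 CPM, the Cd4-only cells at 102.5 and 58.1 CPM and the cells with neither at 110.0 and 76.6 CPM. The ratio interval was 1.47 to 4.22 in the first and reached past 1 on both sides in the others.

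Myeloid cells also carried Ccl4. Macrophage-like cells were at 398.5 CPM (381.4 to 416.3) with chow and 424.4 CPM (382.7 to 469.3) with the ketogenic diet, and cDC2-like cells (type 2 conventional dendritic cells) at 555.4 CPM (524.8 to 587.4) and 595.7 CPM (567.3 to 625.2). The intervals of the libraries overlapped in both. These clusters and cluster 8 held 37.7% of chow and 18.3% of ketogenic Ccl4 UMIs, at 35.1% and 9.89% of the cells. In the mature DC-like cluster Ccl4 was at 46.2 and 176.3 CPM, but 1 ketogenic cell held 45 of the 61 UMIs there, and the log2 ratio of 1.90 was 0.27 without the top cell of each library. In cluster 8 it was 0.78 and became -1.02 without the top cells, 1 of which held 36 of 48 ketogenic UMIs.

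Ccl3 was high in NK-like and macrophage-like cells. NK-like cells were at 149.6 CPM (132.3 to 168.6) with chow and 167.5 CPM (154.4 to 181.4) with the ketogenic diet, a ratio of 1.12 (0.97 to 1.30). Macrophage-like cells were at 120.5 CPM (111.1 to 130.4) and 100.8 CPM (81.0 to 123.9). One ketogenic macrophage-like cell held 30.0% of the 90 UMIs, and the log2 ratio of -0.25 was -0.68 without the top cell of each library. The macrophage-like cluster held 56.2% of chow Ccl3 UMIs and 8.03% of ketogenic ones, and the NK-like cluster 24.7% and 53.7%. Their shares of the cells were 19.3% and 2.61% for the macrophage-like cluster and 16.2% and 19.1% for the NK-like cluster.

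In cDC2-like cells Ccl3 was at 29.9 CPM (23.1 to 38.1) with chow and 78.2 CPM (68.1 to 89.3) with the ketogenic diet. The log2 ratio was 1.38 and the ratio 2.61 (1.97 to 3.50). One ketogenic cell held 58 of the 216 UMIs, and the log2 ratio without the top cells was 1.22. The CD8 T marker sum in the cluster, with most of its genes also in the CD4 T list, was at 112.0 and 443.3 CPM. Without the 36 of 344 chow and 87 of 358 ketogenic cells that carried at least 3 NK or CD8 T cell markers, Ccl3 was at 30.2 and 98.3 CPM. The thinned share of cDC2-like cells with a Ccl3 UMI was 2.33% (1.01 to 4.53) and 4.47% (2.58 to 7.16), and these intervals overlapped. In cluster 4, Ccl3 was at 17.3 CPM from 13 UMIs and 32.5 CPM from 63 UMIs.

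The UMIs of the ligands were spread over the cells to different degrees. In NK-like cells, the tenth of cells with the most UMIs of a gene held 24.6% of chow and 24.8% of ketogenic Ccl5. For Xcl1 the shares were 38.6% and 37.9%, for Ccl4 53.5% and 55.0%, and for Ccl3 81.8% and 82.7%. The genes differ in UMIs, and this share also depends on their number, so the order is a description.

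In NK-like, macrophage-like and cDC2-like cells, Ccl4 was higher in cells with a Ccl3 UMI than in cells without one. Of NK-like cells with a Ccl3 UMI, 87.7% with chow and 84.8% with the ketogenic diet had a Ccl4 UMI, against 67.4% and 64.6% of cells without one. Median depth was 2393.5 and 3316 UMIs in the cells with and 2270 and 3116 in the cells without a Ccl3 UMI. The Ccl4 level was 5736 against 1747 CPM with chow (ratio 3.28, 3.09 to 3.49) and 3981 against 1037 CPM with the ketogenic diet (ratio 3.84, 3.65 to 4.04). The ratio was 5.83 (5.32 to 6.39) and 2.94 (2.34 to 3.68) in macrophage-like cells and 6.46 (5.74 to 7.26) and 4.28 (3.86 to 4.73) in cDC2-like cells. The same ratio for Ccl5 was 1.06 (1.02 to 1.10) and 1.10 (1.07 to 1.12) in NK-like cells, 1.26 (1.12 to 1.41) and 4.69 (3.93 to 5.60) in macrophage-like cells and 2.49 (2.07 to 2.98) and 1.42 (1.21 to 1.66) in cDC2-like cells. For Xcl1 it was 1.07 (0.96 to 1.19) and 1.67 (1.56 to 1.77) in NK-like cells, 1.53 (0.98 to 2.34) and 4.33 (2.30 to 7.95) in macrophage-like cells and 1.60 (0.70 to 3.24) and 0.92 (0.38 to 1.92) in cDC2-like cells. The ketogenic macrophage-like values rest on 16 cells with a Ccl3 UMI.

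**Figure D4:**
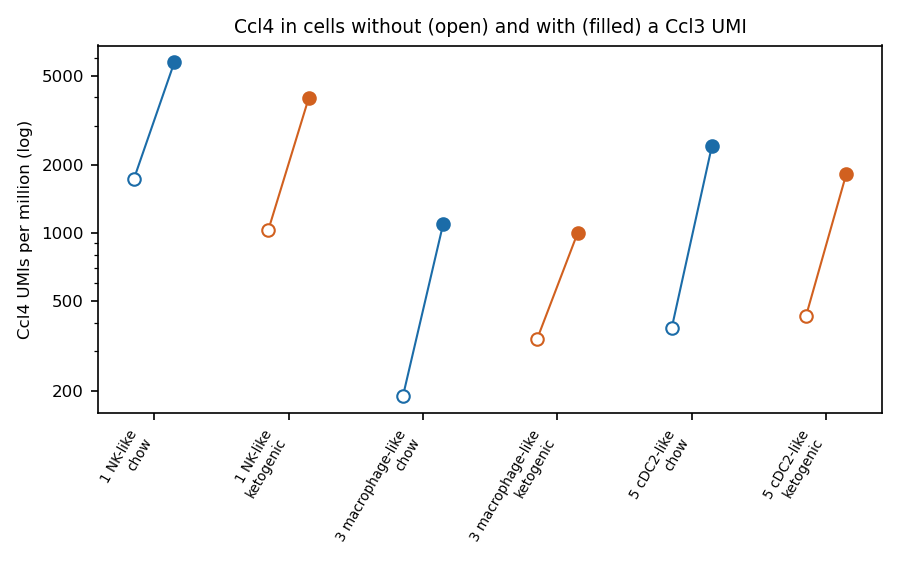
Ccl4 level (CPM, log axis) in cells without (open circles) and with (filled circles) a Ccl3 UMI, for NK-like, macrophage-like and cDC2-like cells of the chow (blue) and ketogenic (orange) libraries; no intervals are drawn. Cells with a Ccl3 UMI lie higher in all 6 pairs, by ratios from 2.94 to 6.46.

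Xcl1 went with Ccl4 and against Ccl5 in NK-like cells. Cells with an Xcl1 UMI held 2817 CPM of Ccl4 against 1293 CPM in cells without one with chow (ratio 2.18, 1.99 to 2.39) and 1753 against 940.3 CPM with the ketogenic diet (ratio 1.86, 1.69 to 2.06). The same ratio for Ccl5 was 0.82 (0.80 to 0.85) and 0.85 (0.83 to 0.88). In cluster 4 it was 0.84 (0.80 to 0.88) and 0.77 (0.75 to 0.80) for Ccl5. In T-like cells Ccl5 was higher in cells with an Xcl1 UMI, with ratios of 1.22 (1.09 to 1.38) and 1.72 (1.66 to 1.78).

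Xcr1 was found in cDC1-like cells and in the cycling cluster, which together held 89.4% of its UMIs with chow and 94.9% with the ketogenic diet. In cDC1-like cells, whose markers here did not include Xcr1, it was at 131.2 CPM (117.2 to 146.4, from 320 UMIs) and 169.7 CPM (156.3 to 184.0, from 591 UMIs). The intervals did not overlap, and the ratio was 1.29 (1.13 to 1.49). The log2 ratio of 0.37 lay between 0.30 and 0.41 over the alternatives, inside the 5% to 95% range of all 6361 genes tested in that cluster (-0.63 to 0.71). The thinned share of cDC1-like cells with an Xcr1 UMI was 12.1% (8.63 to 16.2) and 14.9% (11.4 to 19.1), and the unthinned share 56.0% and 71.3% at medians of 7906 and 9922 UMIs. In the other 11 clusters Xcr1 was between 0 and 6.43 CPM with chow and between 0 and 2.85 CPM with the ketogenic diet.

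The cycling cluster mixes lineages. Its lymphoid-led cells were 39 of 142 with chow and 82 of 154 with the ketogenic diet (27.5% and 53.2%). In the whole cluster, Ccl5 was at 422.9 and 1533 CPM (ratio 3.62, 3.31 to 3.97), Xcl1 at 31.2 and 124.2 CPM (3.98, 2.85 to 5.67) and Ccl4 at 152.3 and 316.1 CPM (2.08, 1.76 to 2.45). The summed CD8 T marker list beside them, with most of its genes also in the CD4 T list, was at 436.7 and 1676 CPM. The NK list was at 232.1 and 546.3 CPM and the macrophage list at 2740 and 816.0 CPM. The chow Xcl1 level of the whole cluster was 20.1% of the library-wide level, in the range not told apart from background above. Within the lymphoid-led cells, Ccl5 was at 1137 and 2672 CPM (ratio 2.35, 2.07 to 2.67) and Xcl1 at 85.0 and 222.9 CPM (ratio 2.62, 1.66 to 4.36). One chow cell held 10 of the 21 Xcl1 UMIs, and the ratio was 4.44 (2.4 to 9.1) without the top cell of each library. Xcr1 in the cDC1-led cycling cells was at 99.1 CPM (67.4 to 140.7) and 134.6 CPM (103.2 to 172.6), and 0 and 1 Xcr1 UMIs were seen in the lymphoid-led cells. The 64 chow and 29 ketogenic cells led by macrophage or other myeloid markers were at 305.8 and 1379 CPM of Ccl5. In these, 1 chow cell held 40.4% of the UMIs and 7 ketogenic cells 88.5%, and the levels were 184.6 and 1124 CPM without the top cell of each library. The part of lineage makeup in the ligand ratios beyond this split was not tested.

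**Figure D5:**
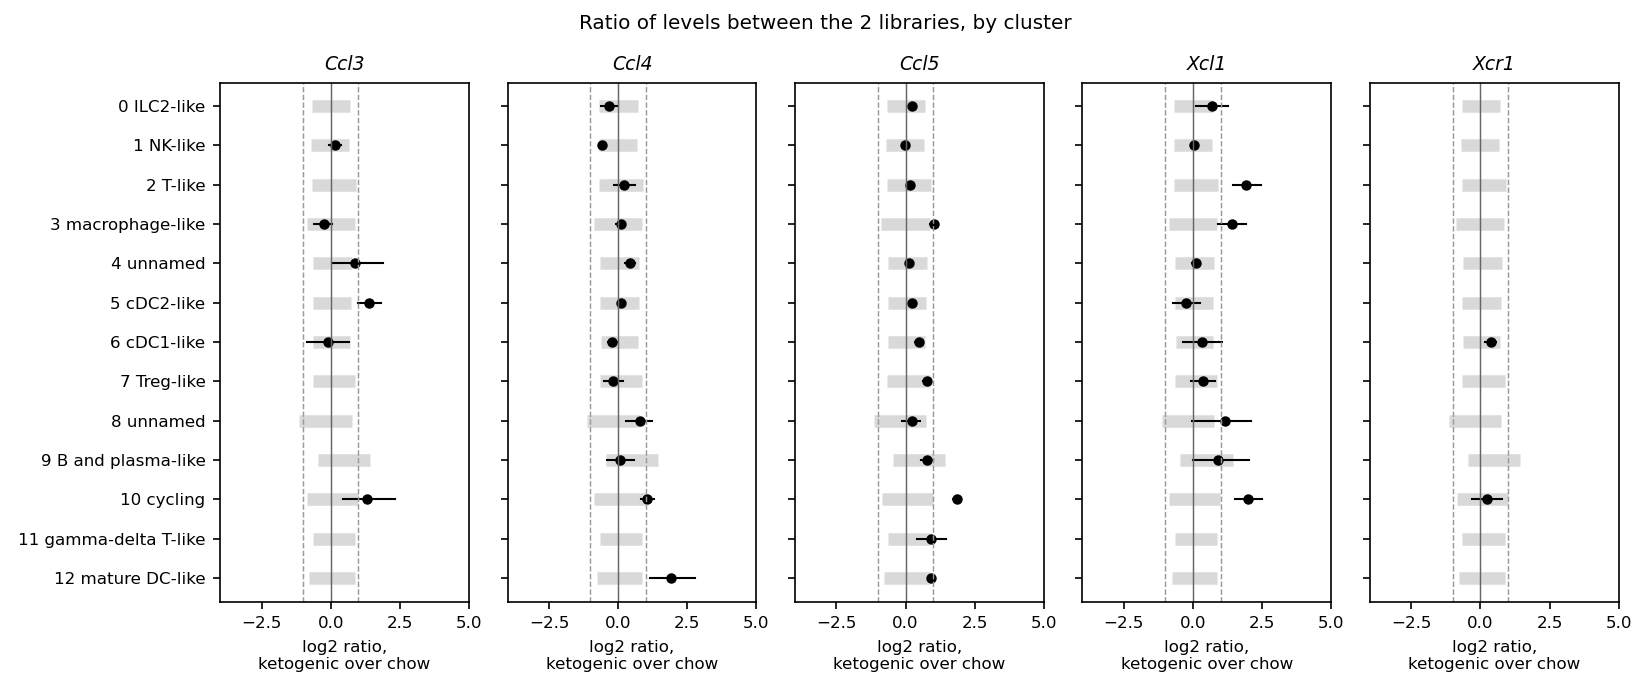
Points give the log2 ratio of levels, ketogenic over chow, for each gene in each cluster with at least 50 UMIs over both libraries; black lines are exact 95% intervals for counting error, grey bars the 5% to 95% range of all genes tested in that cluster and dashed lines 2-fold. Ccl4 lies at -0.59 in NK-like cells and Xcl1 at 1.92 in T-like cells.

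Of the 65 pairs of a member and a cluster, 44 had at least 50 UMIs over both libraries. In 10 of them the level was at least 2-fold higher with the ketogenic diet, where 3.32% of all 66224 gene and cluster pairs were, and in 0 at least 2-fold lower, against 2.32%. The median log2 ratio of the 44 was 0.33 and that of all pairs 0.07. The 10 were Xcl1 in T-like, macrophage-like, cycling cells and cluster 8, Ccl5 in macrophage-like and cycling cells, Ccl4 in cycling and mature DC-like cells, and Ccl3 in cDC2-like and cycling cells. Without the cell with the most UMIs of the gene in each library, 5 of 41 pairs were at least 2-fold higher and 1, Ccl4 in cluster 8, at least 2-fold lower. Those no longer past 2-fold were Ccl4 in cycling and mature DC-like cells, Ccl5 in macrophage-like cells and Xcl1 in cluster 8, and Ccl3 in cycling cells had too few UMIs left. Xcl1 in cluster 8, at a level not told apart from background, had 10 ketogenic UMIs, 5 of them in 1 cell, and its log2 ratio of 1.16 was 0.40 without the top cells. Without cells that carried at least 3 markers of the other lineage, 7 of 41 were higher and 0 lower.

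The macrophage-like pairs moved with markers of other cells. Ccl5 there was at 295.5 CPM with chow and 596.8 CPM with the ketogenic diet, and Xcl1 at 20.7 and 54.9 CPM. The summed NK marker list in the same cells was at 86.2 and 230.7 CPM. Without the 65 chow and 24 ketogenic cells that carried at least 3 NK or CD8 T cell markers, Ccl5 was at 213.5 and 227.4 CPM and Xcl1 at 14.1 and 16.2 CPM. The log2 ratio was then 0.10 in place of 1.01 for Ccl5 and 0.26 in place of 1.42 for Xcl1.

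Receptors of the CC ligands were measured in the same cells. Ccr1 was highest in macrophage-like cells, at 144.9 CPM (134.6 to 155.8) and 156.8 CPM (131.9 to 185.0). It was at 84.8 and 51.6 CPM in cluster 8, at 68.3 and 44.5 CPM in Treg-like cells and at 33.1 and 36.9 CPM in cDC2-like cells, with overlapping intervals in each. Ccr3 was seen mainly in Treg-like cells, at 90.3 CPM (65.9 to 120.9) with chow and 44.5 CPM (34.2 to 57.0) with the ketogenic diet, a difference whose ratio had an interval of 0.33 to 0.74. Ackr1, which binds chemokines without signalling, had at most 3 UMIs in any cluster and library, and so did Ackr2, a scavenger of CC chemokines.

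Other genes near the pathway were read from lists. Of all genes tested, 1.34% were at least 2-fold higher and 1.72% at least 2-fold lower in NK-like cells, and 1.35% and 1.21% in cDC1-like cells. Of 19 genes of lymphocyte activation, 16 were testable in NK-like cells, 0 were at least 2-fold higher and 1 was at least 2-fold lower, with a median log2 ratio of 0.16 against 0.03 for all genes there. The lower one was Egr1, an early response factor named after its values were seen, at 66.7 and 31.4 CPM. Its level was lower with the ketogenic diet in all 13 clusters, and was 452.9 and 86.2 CPM in macrophage-like cells. The part of the macrophage marker sum in its NK-like difference was not tested. Ifng, the cytokine of type 1 responses, was at 103.4 CPM in chow and 121.8 CPM in ketogenic NK-like cells (ratio interval 0.99 to 1.41). Of 11 genes of the exchange between NK cells and cDC1, 7 were testable in cDC1-like cells, none of which was past 2-fold in either direction, with a median log2 ratio of 0.04 against 0.07. Flt3l, the growth factor of dendritic cells, was at 40.6 and 57.0 CPM in NK-like cells (ratio interval 1.07 to 1.86). Its receptor Flt3 was at 90.2 and 117.4 CPM in cDC1-like cells (1.10 to 1.54). Other genes of this list, named after their values were seen, went the other way in cDC1-like cells. Among them, Cxcl10 was at 30.7 and 15.5 CPM (0.35 to 0.73) and Batf3 at 188.6 and 135.0 CPM (0.63 to 0.82). Of the other chemokine ligands, 8 were testable in NK-like cells and 5 were at least 2-fold lower, with a median of -3.01. The macrophage marker sum there went from 1048 to 169 CPM beside them. The 5, named after their values were seen, were Ccl2, Ccl6, Ccl9, Ccl24 and Cxcl2. Ccl2, a monocyte attractant, was at 37.3 and 3.06 CPM, and Cxcl2, which recruits neutrophils, was at 235.8 and 27.8 CPM. Of 10 transcription factors listed as regulators, 9 were testable in NK-like cells, and 1 was past 2-fold, Batf3, named after its values were seen, which was lower at 17.8 and 5.29 CPM. Batf3 was at 144.5 CPM in chow macrophage-like cells, and the part of the macrophage marker sum in its difference was not tested. In cDC1-like cells 7 were testable and 0 were past 2-fold, with a median of -0.41. Of 16 other chemokine receptors, 4 were testable in NK-like cells and 0 were past 2-fold.

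Across the 26 values of 13 clusters in 2 libraries, the genes most like each member were named by Pearson correlation of log2(CPM + 10) over 10361 genes with at least 100 UMIs. The values share libraries and depth, and the correlations are a description. The gene most like Ccl3 was Ccl4 (r 0.85), and Ccl4 was most like Cd244 (0.87), an NK cell receptor, and Ccl3. Ccl5 was most like C1qtnf6 (0.93) and Serpinb9 (0.92), an inhibitor of granzyme B. Xcl1 was most like Klrc2 (0.97) and Klrb1c (0.96), which encode NK cell receptors. Xcr1 was most like Dbn1 (0.97) and Tlr3 (0.97), a sensor of double-stranded RNA. Between members, r was 0.74 for Ccl5 with Xcl1, 0.44 for Ccl5 with Ccl4 and 0.21 for Ccl5 with Ccl3.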

How the data were processed

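Each of the deposited matrices lists whole-number UMI counts, not normalised, for every gene in every cell, per the file headers. Cell Ranger, Seurat and mm10 are named in the submitters' processing notes, without versions. The authors' deposited cluster table gives cluster numbers at a resolution of 0.5 for 10017 of 10159 cells. The 142 others had over 5% mitochondrial UMIs and were left out. Doublets were not called.

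UMIs were summed per gene, cluster and library with Python 3.11.15, NumPy 2.4.6, SciPy 1.17.1 and pandas 2.3.3. Log2 ratios had 0.5 added to each sum. Intervals at 95% were exact Poisson for sums, exact conditional for ratios and Clopper-Pearson for shares, and cover counting error only. A count of 0 was given a limit of 3 counts. Thinning to 1000 UMIs used the exact hypergeometric expectation and left out no cell. A name was given only where at least 3 markers of a list were raised 2-fold, on CPM plus 20, and at least 1 was among the cluster's 10 leading genes. Passing for a list did not fix the name. Cluster 4 passed for the CD4 T, CD8 T and γδ T lists and was left unnamed. Cluster 7 (Treg-like) also passed for the ILC2 list, and cluster 3 (macrophage-like) for the monocyte list. The scripts were tested on simulated data. The members, marker lists and gene lists were chosen with earlier results of these data known. Named genes were the members in every cluster, their receptors, list members by count and, for each member, the 5 genes with the highest correlation. The splits by marker, the minimum of 3 markers of another lineage and the sets of low clusters were chosen after seeing the data. The alternatives covered totals, centring, filters on cells, and subtraction of 10% of UMIs with the library profile as free RNA, and 3 were added after seeing the data. Fewer cells of a type and less RNA per cell cannot be told apart in library-wide levels.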

Additional observations from a re-analysis of the deposited data

Results flagged for a closer look

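Each diet has 1 library, so the differences between clusters given here were not tested. They were picked because the 95% counting interval of the ratio lay wholly below 1 in some clusters and wholly above 1 in others. For Ccl4 the log2 ratio, ketogenic over chow, was -0.59 in NK-like, -0.32 in ILC2-like and -0.21 in cDC1-like cells, and 0.44 in cluster 4, 0.78 in cluster 8, 1.05 in cycling and 1.90 in mature DC-like cells. The values in cluster 8 and mature DC-like cells rest on 1 cell each. ILC2-like cells held Ccl4 at 14.4% and 11.7% of the library-wide level, and the log2 ratio there lay between -1.36 and -0.23 over the alternatives. For Ccl5 it was -0.03 in NK-like cells, and over the alternatives it lay between -0.07 and 0.03, on both sides of 0. It was 0.12 in cluster 4, 0.15 in T-like, 0.24 in cDC2-like, 0.25 in ILC2-like, 0.50 in cDC1-like, 0.76 in B and plasma-like, 0.77 in Treg-like, 0.91 in γδ T-like, 0.92 in mature DC-like, 1.01 in macrophage-like and 1.86 in cycling cells. The cDC2-, ILC2-, cDC1-, B and plasma-, γδ T- and macrophage-like clusters among these held Ccl5 at no more than 21.0% of the library-wide level. With 10% of UMIs subtracted as free RNA, the value was below 0 in ILC2-, cDC1- and cDC2-like cells, and without cells carrying lymphocyte markers it was 0.10 in macrophage-like cells. The median of all genes was 0.50 in B and plasma-like cells.

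The cells outside the authors' clusters, 87 with chow and 55 with the ketogenic diet, also held UMIs of the members above the limit of 3 counts. Ccl5 had 699 chow and 630 ketogenic UMIs there, at 3145 and 3588 CPM. Ccl4 had 78 and 57 UMIs, Xcl1 had 47 and 57, and Ccl3 had 7 and 6. Xcr1 had 6 UMIs with chow.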

How the results depend on the processing

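No paired analysis was possible because each diet has 1 library, and no replicate could be left out. Of 440 ratios (44 pairs under 10 alternatives), 381 stayed within the counting interval of the reported value and 0 of those past 2-fold changed sign. The subtraction of 10% of UMIs as free RNA moved 15, leaving out the 5% of cells with the most UMIs moved 12, and leaving out cells with markers of the other lineage moved 10. The count of 10 pairs at least 2-fold higher was 5 without the cell with the most UMIs of the gene and 18 at 1.5-fold. The count of 0 lower was 5 with free RNA subtracted and 1 in each of 4 settings: without the top cell, without the 5% of cells with the most UMIs, at a minimum of 20 UMIs and at 1.5-fold. The cause was not tested. With every cluster weighted equally, the NK-like share of UMIs, chow and ketogenic, was 35.5% and 36.1% for Ccl3, 50.8% and 35.8% for Ccl4, 30.7% and 23.7% for Ccl5 and 50.3% and 43.2% for Xcl1, and the cDC1-like share of Xcr1 66.1% and 74.4%. Shares of cells with a UMI follow depth by construction. Without thinning, at 1500 UMIs and with at least 2 UMIs, that of Xcl1 in NK-like cells was 77.9%, 68.2% and 30.4% with chow and 85.5%, 69.9% and 30.5% with the ketogenic diet. That of Ccl4 was 70.9%, 62.8% and 38.0%, and 68.6%, 55.1% and 29.4%. That of Xcr1 in cDC1-like cells was 56.0%, 17.6% and 0.98%, and 71.3%, 21.4% and 1.41%. Of the 5 genes most like a member, Spearman's rho kept 2 for Ccl3, Ccl4 and Ccl5 and 1 for Xcl1 and Xcr1, and a minimum of 500 UMIs kept 2 for Ccl3 and 3 for Xcr1. At a depth of 50 UMIs over both libraries, 6 of 13 clusters were testable for Ccl3 and 2 for Xcr1, and smaller differences there were not detectable.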
